A study of Carassius auratus with 5 samples.

Results

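The muscle contractile clones of a goldfish cDNA array were the 123 clones, of 8099 on the array, whose description held 1 of these words: myosin, troponin, tropomyosin, parvalbumin, titin, nebulin, alpha actin (also hyphenated), skeletal muscle, cardiac or sarcoplasmic. Descriptions with creatine kinase or alpha-actinin were left out. The clones carried 37 descriptions, and each was spotted 2 times. The RNA came from the telencephalon, the front of the forebrain, of sexually mature female goldfish. On each of 5 two-color arrays, 1 independent group of fish exposed to fadrozole in the water at 50 µg/L was labeled with Cy3. It was hybridized against the same pool of unexposed control fish, labeled with Cy5. Fadrozole inhibits aromatase, which converts androgens to estrogens. The labels give neither the number of fish in a group or in the pool nor the length of exposure.

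Striated muscle contracts when thick filaments of myosin pull on thin filaments of actin, with titin and nebulin as molecular rulers of the sarcomere. Troponin and tropomyosin lie on the thin filament and uncover the myosin-binding sites when calcium is released from the sarcoplasmic reticulum. Parvalbumin, a soluble calcium buffer, is abundant in the white muscle of fish and also marks a class of inhibitory neurons. Skeletal muscle is not part of the telencephalon, whereas nonmuscle and unconventional myosins are made in most cells. Of the 123 clones, 13 had descriptions that name a nonmuscle or unconventional myosin, a myosin phosphatase subunit or a myosin-binding protein. The last, 5 clones of myosin-binding proteins C and H, are proteins of the sarcomere.

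Values are log2 ratios of fadrozole over control, negative where exposed fish gave the weaker signal, and are given for replicates 1 to 5 in that order or as the mean ± SD over the 5 arrays. All arrays had 1 dye orientation, so that the dye and the exposure cannot be told apart. The control is 1 pool, so that the spread between unexposed fish is not part of any error. In tissue RNA, fewer cells of a type and less RNA per cell cannot be told apart. Clones of 1 description may come from 1 gene or from near-identical copies, and muscle and cytoplasmic actins share much of their sequence, so that a spot may bind more than 1 transcript. The control channel had median spot intensities of 62.9 to 96.4, the fadrozole channel of 122 to 386, and any 2 arrays correlated at r of 0.11 to 0.31 across clones, which are not independent replicates. The number of arrays limits the precision, and the median standard error of a muscle contractile clone was 0.09.

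None of the muscle contractile clones was called. The lowest adjusted p among them was 0.0695 in limma's moderated test, with Benjamini-Hochberg adjustment over 8078 tested clones and a threshold of 0.05, while 2.03% of all tested clones were called, 0.421% higher and 1.61% lower. All 123 passed the filter on dim clones, which asked for a signal above local background in at least 1 channel on at least 3 arrays. At limma's unadjusted p under 0.05 there were 28 of them (22.8%), 16 lower and 12 higher, against 14.3% of all tested clones. The lower ones made up 13% of the muscle contractile clones, against 8.06% of all, and the higher ones 9.76%, against 6.29%. Without replicate 5 there were 8 lower and without replicate 3 there were 9, and without replicate 1 there were 5 higher. In both directions together the share was 15.4% without replicate 5, against 12% of all. It was 15.4% without replicate 3, against 12.4%, and 17.1% without replicate 1, against 12.3%. The excess was absent with median centering in place of loess, where 14 of the 123 (11.4%) had such a p, against 12.5% of all. Of the 28 above, fast skeletal myosin light chain 3 held 7 lower. Skeletal alpha-actin held 3 lower and 1 higher, and carp parvalbumin 1 lower and 5 higher. Clones of 1 description are not independent, so that the excess is not a count of genes. In the role groups that hold none of these 3 descriptions, the share was 18.2% for troponin and 0% to 12.5% for the others. Source plates 02 and 04 held none of the muscle contractile clones and 127 of the 130 clones called lower. Without those plates 0 of 7310 tested clones were called, and 10.1% had an unadjusted p under 0.05 in limma, against 22.8% of the muscle contractile clones.

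The clones as a whole were centered close to 0. Their median was 0.01, against 0.00 for all tested clones, and 65 of the 123 (52.8%) had a mean above 0, against 49% of all. Their array medians were 0.03, 0.03, -0.04, 0.00 and 0.00. The spread of the clone means was 0.19 (SD between clones), against 0.18 over all tested clones. In 96 of the 123 the SD over arrays exceeded the size of the mean. A mean of at least 1.2-fold was reached by 19 clones and of at least 1.5-fold by 1. The counts by SD and by fold were not taken over all tested clones. On all 5 arrays, 22 clones (17.9%) had 1 sign, against 14.8% of all tested clones and 11.8% of those outside source plates 02 and 04. Of the 22, 15 were below 0, where 7.65% of all tested clones were, and 7 above it, where 7.16% were. Fast skeletal myosin light chain 3 held 6 of those below and 1 of those above. Skeletal alpha-actin held 3 and 1, and carp parvalbumin 2 and 2. Clones of 1 description are not independent. With the clones of each description averaged, 3 of the 37 descriptions had 1 sign on all arrays. The 2 spots of a clone had means of 1 sign in 86 of the 123, and in 28 of the 28 at an unadjusted p under 0.05. The 28 were selected by the average of these same 2 spots, so that their agreement is no separate check. This share was not taken over all tested clones. Replicate 1 was quantified on another day than the rest. Among replicates 2 to 5 alone 0 muscle contractile clones were called, against 1 of all 8078 tested. An unadjusted p under 0.05 in limma was reached by 21 (17.1%), 16 of them lower, against 12.3% of all.

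**Figure D1:**
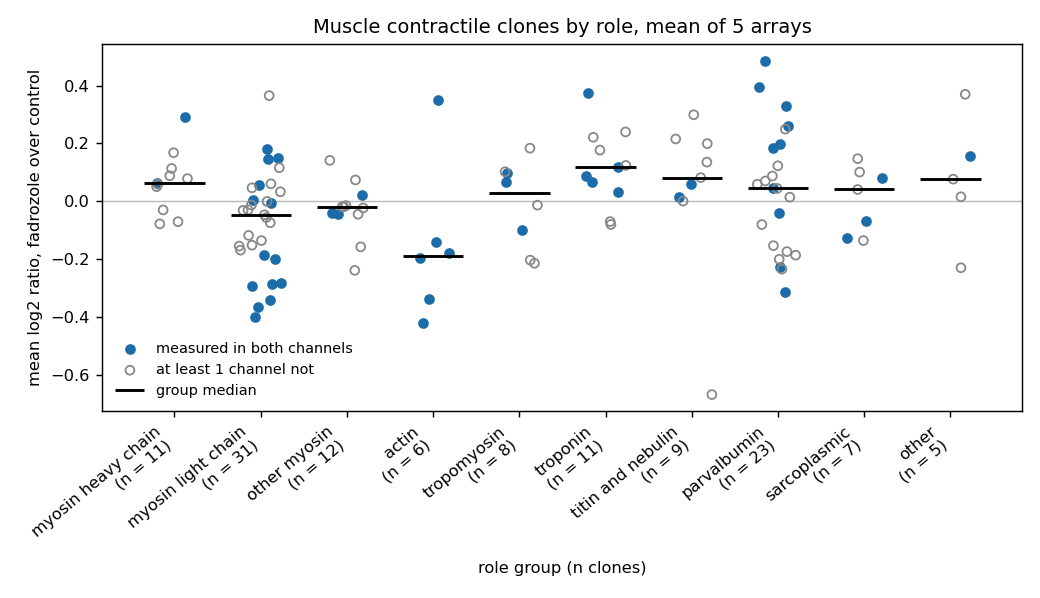
Mean log2 ratio of fadrozole over control over 5 arrays for each of the 123 clones, by role, with the number of clones in each group and a bar at the group median. Filled points were above local background in both channels on at least 3 arrays, and open points were not. The light chains and the actins reach down to about -0.4, the parvalbumins up to 0.49, and 1 titin clone stands apart at -0.67.

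Among the thick filament proteins, the lower ratios lay in fast skeletal myosin light chain 3, an essential light chain that stiffens the lever arm of the myosin head. Of its 12 clones 10 had a mean below 0, with a median of -0.19, and 7 had an unadjusted p under 0.05, each of them lower. This count of 7 fell to 3 with median centering and to 5 with plain background subtraction or the authors' deposited values. With each array left out it was 5 to 7. The median over the 12 clones was -0.27, -0.04, -0.23, -0.20 and -0.17 on the 5 arrays, below 0 on each and closest to 0 on replicate 2. The lowest clone, 29d16, was at -0.36, -0.26, -0.58, -0.14 and -0.65, a mean of -0.40 ± 0.22 (adjusted p = 0.0695 in limma). Its scanner intensities, as means of its 2 spots before any correction, were 316, 917, 645, 240 and 695 for control and 465, 1181, 1188, 584 and 294 for fadrozole. Both channels exceeded the level of the blank spots on all 5 arrays, and the channels cannot be compared with each other before normalization, which accounts for the different gain of the dyes.

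The clones of this description did not all lie on 1 side. Clone 24e09 was at -0.35, -0.33, -0.25, -0.19 and -0.35, a mean of -0.29 ± 0.07, the narrowest spread among the 7 lower clones. Clone 27m22 was at 0.23, 0.17, 0.07, 0.13 and 0.15, a mean of 0.15 ± 0.06 (adjusted p = 0.39). These 2 clones had the same description, opposite signs and ranges over the arrays that did not overlap. The control intensities of 27m22, at 1049, 3064, 2644, 976 and 4364, were the highest of this description on every array. Clone 30k09, with control intensities of 679, 2077, 1031, 690 and 1600, was at -0.004 ± 0.23. Clones 29c15 at -0.34 ± 0.16, 14h11 at -0.36 ± 0.24 and 28o11 at -0.28 ± 0.17 were also below 0 on all 5 arrays. These clones are named after their values were seen. The mean of the 5 array medians of this description was -0.18 ± 0.09.

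The other myosin light chains were centered closer to 0. Fast skeletal light chain 1a, the longer essential light chain of the same fiber type, had a median of -0.01 over 9 clones, with 0 clones at an unadjusted p under 0.05 that were lower and 1 that was higher. The regulatory light chain, which is phosphorylated to tune force, had a median of -0.04 over 10 clones, 5 on each side of 0. Among them 22d02 was at 0.80, -0.13, 0.14, 0.09 and 0.93, a mean of 0.37 ± 0.47 (adjusted p = 0.32). Replicates 1 and 5 carried this mean, and its fadrozole channel was above local background on 2 of 5 arrays. Clones 26a20 at -0.28 ± 0.31 (adjusted p = 0.298) and 27h01 at -0.15 ± 0.07 were below 0 on all 5 arrays. Both are named after their values were seen. Of the 10 regulatory light chain clones, 1 was lower and 1 higher at an unadjusted p under 0.05 in limma.

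Myosin heavy chain, the motor itself, had a median of 0.06 over 11 clones, 8 of them above 0. Its highest clone, 52a15, was described as Myosin-9, a nonmuscle heavy chain made in many cell types. It was at 0.15, 0.33, 0.66, 0.00 and 0.32, a mean of 0.29 ± 0.24 (adjusted p = 0.205), with replicate 4 at 0 and the others above it. The lowest, 39e13, was at -0.08 ± 0.10 and above 0 on replicate 3 alone. The 8 clones described as carp myosin heavy chain, without a named muscle type, had a median of 0.06 with 0 at an unadjusted p under 0.05. In 4 of them the fadrozole channel exceeded the blank level on no array.

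The 12 other myosin clones, which hold myosin-binding and myosin-regulating proteins and unconventional myosins, had a median of -0.02, and 0 had an unadjusted p under 0.05. The lowest was 17m03, a fast-type myosin-binding protein C, which ties thick filaments together, at 0.12, -0.55, 0.15, 0.08 and -0.99, a mean of -0.24 ± 0.51. Replicates 2 and 5 were low and the other 3 slightly above 0. Its fadrozole channel was above local background on 1 of 5 arrays, and its control intensity was 0 on replicate 3 and 343 on replicate 5. The highest was 24f19, the ubiquitin ligase MYLIP, at 0.14 ± 0.13 (adjusted p = 0.476).

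Among the thin filament proteins, skeletal alpha-actin, the polymer of the filament, had a median of -0.19 over 6 clones, 5 of them below 0. All 6 were measured in both channels on at least 3 arrays. The lowest, 15c08, was at -0.19, -0.16, -0.23, -0.68 and -0.84, a mean of -0.42 ± 0.32 (adjusted p = 0.115). It was below 0 on all arrays, with replicates 4 and 5 far below the other 3. Clone 26b14 was at -0.45, -0.21, -0.53, -0.14 and -0.36, a mean of -0.34 ± 0.16 (adjusted p = 0.0799). The remaining clone, 29n15, was at 0.76, 0.29, 0.18, 0.24 and 0.27, a mean of 0.35 ± 0.23 (adjusted p = 0.12). It was above 0 on all 5 arrays, so that its values overlapped with those of neither 15c08 nor 26b14 although the 3 shared a description. On every array its control intensity was above those of 15c08 and 26b14.

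Cytoplasmic actins, the actins of every cell, were set beside these. Their 24 clones had a median of -0.08, with 3 called lower and 1 called higher. The 18 of them outside source plates 02 and 04, which held 127 of the 130 clones called lower, had a median of 0.00 with 0 called lower and 1 called higher. None of the muscle contractile clones lay on those 2 plates. How much cytoplasmic actin RNA binds the alpha-actin spots was not tested.

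Tropomyosin, the coiled coil along the thin filament, was represented by 8 alpha-tropomyosin clones, 4 on each side of 0, with a median of 0.03. Clone 22i07 was at -0.15, -0.32, -0.23, -0.06 and -0.25, a mean of -0.20 ± 0.10 (adjusted p = 0.247), and was the 1 clone of the group below 0 on all arrays. Clone 30a24 was slightly lower on average at -0.21 ± 0.27 but above 0 on 2 arrays, and 21j09 was the highest at 0.18 ± 0.16.

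Troponin, the calcium switch of the thin filament, had 9 of 11 clones above 0 and a median of 0.12. The array medians were 0.24, 0.16, -0.06, 0.11 and -0.07, so that 3 arrays were above and 2 below 0. Without replicate 1 the troponin median was 0.04, without replicate 4 it was 0.08, and with no background subtraction it was 0.03. Skeletal troponin C, the calcium-binding subunit, was the highest with 3 of 3 clones above 0. Its clone 27m12 was at 0.57, 0.74, 0.49, 0.26 and -0.19, a mean of 0.37 ± 0.36 (adjusted p = 0.2), with replicate 5 against the other 4. The lowest troponin clone was 17c20, a fast skeletal troponin I, the inhibitory subunit, whose fadrozole channel was above local background on no array. Its ratio, with a measured mean of -0.08 ± 0.11 (adjusted p = 0.699), is thus not a fold between 2 measured signals.

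Titin, which spans from the Z-disc to the M-band, telethonin, which caps titin at the Z-disc, and nebulin, the thin filament ruler, were grouped with a clone similar to myomesin 1, a protein of the M-band that binds titin. Of these 9 clones 8 were above 0, and the median was 0.08. Without replicate 5, 6 of the 9 were above 0. The fadrozole channel exceeded the blank level on no array in 5 of the 9 and on all arrays in 0 of them. The highest, 60l12, was described as similar to titin and was at 0.82, 0.41, 0.14, 0.00 and 0.13, a mean of 0.30 ± 0.33 (adjusted p = 0.28), highest on replicates 1 and 2. Its control intensity was 0 on replicate 2 and above the blank level on 0 arrays, and its fadrozole channel was above local background on 1 of 5. The exception below 0, 26c16, had the same description and was at 0.02, 0.20, -1.995, -0.01 and -1.55, a mean of -0.67 ± 1.02 (adjusted p = 0.375). This was the clone that reached 1.5-fold.

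The low ratios of 26c16 came with bright control spots. Its control intensities were 73.4, 30.1, 482, 37.6 and 745, and its fadrozole intensities were 284, 184, 381, 264 and 96. The control channel held the same pool on every array, so that the high values on replicates 3 and 5 differ from those of the other arrays for the same RNA. The fadrozole channel exceeded the blank level on 0 of 5 arrays. The 11 blood marker clones, taken by the words for hemoglobin, had array medians of 0.05, -0.07, -0.86, 0.03 and -0.64, low on the same arrays. Of them 9 had a mean below 0, 0 were called, and 0 exceeded the blank level in the fadrozole channel on all arrays, against 2 in the control channel. The part of blood RNA in the values of 26c16 was not tested.

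Parvalbumin had 23 clones with a median of 0.05, 14 of them above 0. The 15 described as carp parvalbumin held 11 with a mean above 0, a median of 0.12 and 5 at an unadjusted p under 0.05 that were higher, against 1 that was lower. Their array medians were 0.16, 0.01, 0.01, 0.07 and 0.23, and without replicate 5 the median was 0.06. The highest clone, 27b07, was at 0.57, 0.67, -0.02, 0.38 and 0.82, a mean of 0.49 ± 0.32 (adjusted p = 0.0747). Its control intensities were 111, 190, 485, 190 and 315 and its fadrozole intensities 396, 570, 1325, 631 and 396, above the blank level in both channels on all arrays.

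Clone 14i09 was the next highest of the carp parvalbumin clones, at 0.63, 0.33, 0.12, 0.28 and 0.60, a mean of 0.39 ± 0.22 (adjusted p = 0.0728). It was above 0 on all arrays and lowest on replicate 3, the array on which 27b07 was close to 0. Among the other higher clones, 20a02 at 0.33 ± 0.30 and 40g07 at 0.26 ± 0.27 were named after their values were seen. The fifth, 23e24, had a fadrozole channel above local background on no array, so that its ratio, with a measured mean of 0.25 ± 0.24, is not a fold between 2 measured signals. It was the 1 clone of this kind among the 28 at an unadjusted p under 0.05.

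Other parvalbumin descriptions lay lower. The 6 parvalbumin beta clones had a median of 0.01, with 1 at an unadjusted p under 0.05 that was lower, 39m13 at -0.23 ± 0.17. The 2 clones described by a crystal structure of cadmium-substituted parvalbumin B were both lower at an unadjusted p under 0.05. Of these 22p10, measured in both channels on all arrays, was at -0.58, 0.13, -0.64, -0.06 and -0.40, a mean of -0.31 ± 0.34 (adjusted p = 0.268). It was above 0 on replicate 2 and low on replicates 1, 3 and 5. The labels do not say which of these descriptions stand for muscle and which for neuronal parvalbumin.

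**Figure D2:**
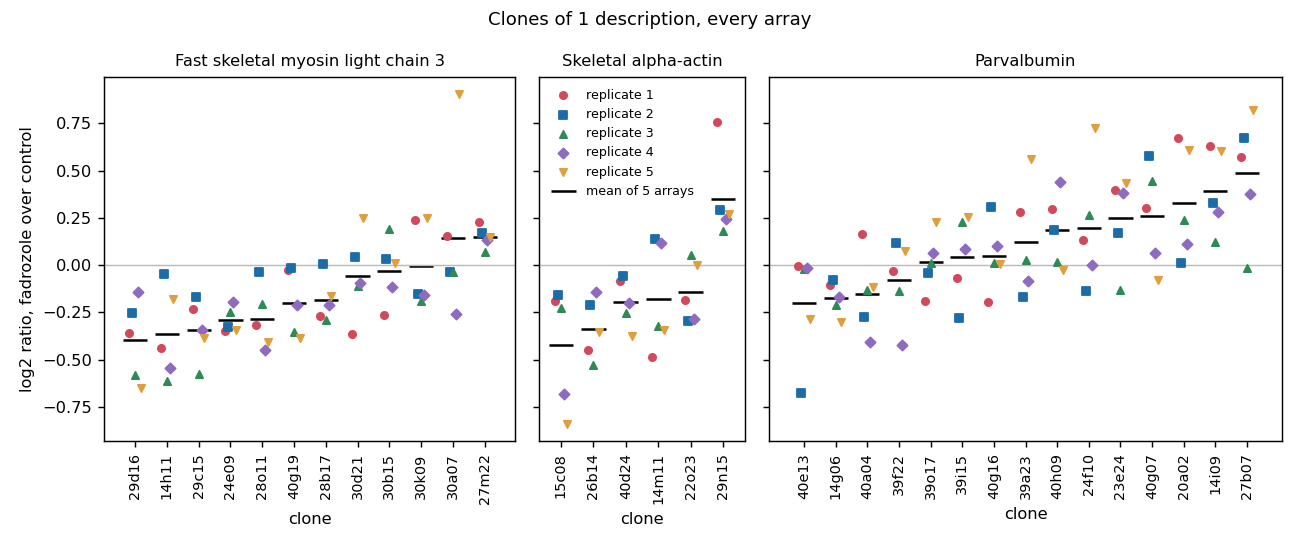
Log2 ratio of fadrozole over control on each of the 5 arrays for the 12 clones of fast skeletal myosin light chain 3, the 6 of skeletal alpha-actin and the 15 of carp parvalbumin, ordered by their mean. Symbols are replicates and bars are means of 5 arrays. Within each description clones lie on both sides of 0, with 10 of 12, 5 of 6 and 4 of 15 below it.

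Among the proteins that release, store and retrieve calcium, the 7 clones of the sarcoplasmic reticulum calcium pump had a median of 0.04, 0 of them at an unadjusted p under 0.05. The lowest, 27m04, was at -0.14 ± 0.17, and the highest, 18p08, at 0.15 ± 0.20, both calcium ATPase 1, the fast-fiber form. The value of 18p08 on replicate 4 was 0.49 and at most 0.12 on the others, and its mean was below 0 with no background subtraction, with plain subtraction and in the authors' values. Ryanodine receptor 1, the calcium release channel of skeletal muscle, was at 0.43, 0.11, 0.48, 0.22 and -0.45, a mean of 0.16 ± 0.37 (51g18, adjusted p = 0.649, named after its values were seen). It was above 0 on all arrays but replicate 5. Ryanodine receptor 2, the calcium release channel known from heart and also made in neurons, was at 0.07, 0.16, -0.16, -1.04 and -0.17, a mean of -0.23 ± 0.48 (55h19). Its control intensity was 288 on replicate 4 and 39.2 to 115 on the other arrays, again for the same pool, and without that array its other values lay between -0.17 and 0.16. Cardiac calsequestrin, which binds calcium inside the reticulum, was at 1.51 on replicate 5 and at -0.12 to 0.48 on the others, a mean of 0.37 ± 0.68 (52g24, adjusted p = 0.49).

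The signal of many muscle contractile clones was dim in the fadrozole channel, as on the array as a whole. The control channel was above local background on all 5 arrays in 103 of the 123 clones (83.7%, against 84% of all tested clones), and the fadrozole channel in 18 (14.6%, against 17.1%). The fadrozole channel was above local background on no array in 7 clones (5.69%, against 6.98%). The blank level was the intensity below which 95% of the empty and buffer spots of an array and channel lay, a measure chosen after seeing the data. By this measure 31 to 54 of the 123 clones (25.2% to 43.9%) were above it per array for control and 22 to 64 (17.9% to 52%) for fadrozole. The shares of all clones were close to these, at 22.6% to 41.1% for control and 19.4% to 49% for fadrozole. Clones for neuronal markers of the labeled tissue, taken by words such as SNAP-25, synuclein and tubulin (tubulins are also made in other cells), were above it in 37.9% to 65.2% for control and 15.2% to 69.7% for fadrozole. In the fadrozole channel the muscle contractile share was above the neuronal one on replicate 1 (30.9% against 25.8%) and replicate 4 (17.9% against 15.2%). It was below the neuronal share on the other arrays.

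**Figure D3:**
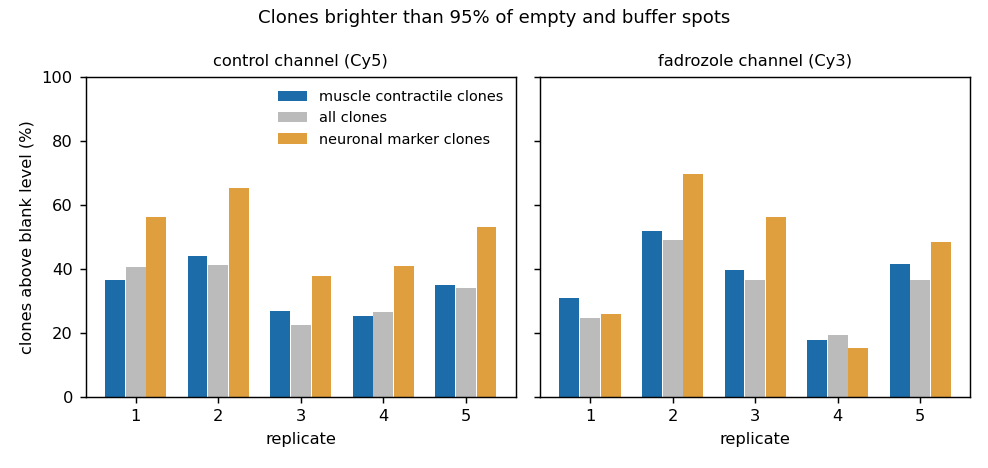
Share of clones, in percent, brighter than 95% of the empty and buffer spots on each array, for the control channel (left) and the fadrozole channel (right). Bars are the 123 muscle contractile clones, all clones and the neuronal marker clones. In the fadrozole channel the muscle contractile share ran from 17.9% on replicate 4 to 52% on replicate 2.

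Where the test was limited to clones above local background in both channels on at least 3 arrays, 8 of 49 muscle contractile clones (16.3%) were called, against 10.5% of the 3308 clones tested in that way. Of the 8, 6 were lower and 2 higher, with adjusted p values of 0.0256 to 0.0463 in limma. The lower ones were the light chain 3 clones 29d16, 29c15, 24e09 and 14h11 and the alpha-actin clones 26b14 and 15c08. The higher ones were the carp parvalbumin clones 27b07 and 14i09. At an unadjusted p under 0.05 were 18 of the 49 (36.7%), against 26.4% of the 3308. The 49 included 10 light chain 3 clones, 8 of them below 0, and 7 carp parvalbumin clones, each above 0. The 4 carp parvalbumin clones with a mean below 0 failed this filter. Each had the control channel above local background on 5 arrays and the fadrozole channel on 1. Because the filter uses the fadrozole signal that enters the ratio, the shared sign of the 7 is not independent of it.

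These 8 calls depended on other clones in the test and on single arrays. Without plates 02 and 04, which hold none of the muscle contractile clones and leave their ratios as they were, 0 of the 49 were called (lowest adjusted p = 0.058) and 0.905% of all clones in the test. With each source plate centered on its median, 0 were called (lowest adjusted p = 0.0724), against 0.212% of all clones in the test. Without replicate 1, which was quantified on a day of its own, 0 were called (lowest adjusted p = 0.0688), against 4.35% of all. Without replicates 2, 3, 4 and 5 the counts were 1, 2, 4 and 1, against 4.9%, 4.84%, 10.6% and 6.11% of all. With no background subtraction 7 were called, against 10.6% of all, and with the day of quantification as a random block 10, against 15.4%. All 8 clones kept their sign in each of these fits. This is no check where an array is left out, since all but 27b07 had 1 sign on all 5 arrays. Nor is it one where the plates are left out, which leaves the ratios as they were. Among clones above the blank level in both channels, 10 of 29 (34.5%) were called, against 20.7% of 1885 clones. The 2 added were 29n15, higher, and 28o11, lower.

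**Figure D4:**
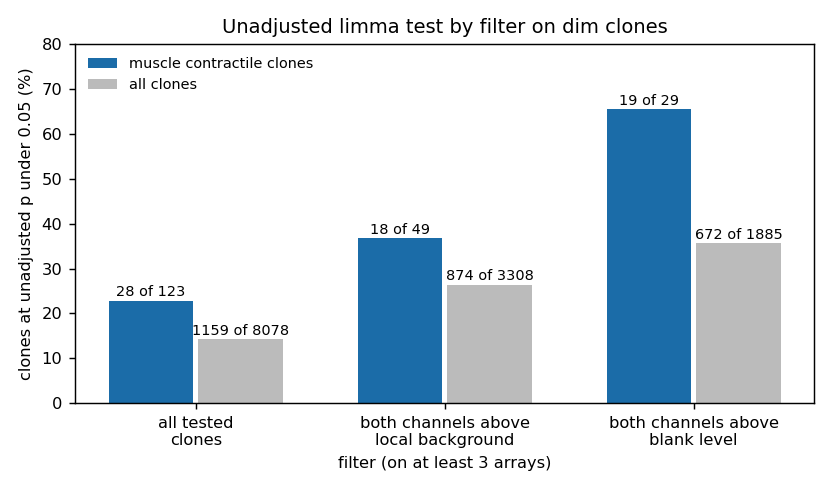
Share of clones, in percent, with limma's unadjusted p under 0.05 among the muscle contractile clones and among all clones, under the filter used for the report and under filters that ask both channels to exceed local background or the blank level on at least 3 arrays. Numbers over the bars are clones. The muscle contractile share was 22.8%, 36.7% and 65.5%, against 14.3%, 26.4% and 35.6% of all clones.

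Muscle genes outside the contractile word list were set beside these values. The words for them matched 81 clones, with a median of 0.02 and 0 called. Of these, 28 had descriptions with brain, B-type, neuronal, cytoskeletal or plasma membrane in them, such as brain creatine kinase, and held 4 of the 5 lower clones at an unadjusted p under 0.05. The other 53, split off after the values were seen, had a median of 0.03, with 1 lower and 2 higher. An unadjusted p under 0.05 in limma was reached by 8.64% of the 81, 14.3% of the 28 and 5.66% of the 53. The share of all tested clones was 14.3%. The M-type creatine kinases, enzymes that regenerate ATP in muscle fibers, had a median of 0.07 over 9 clones. Myoglobin, the oxygen store of red muscle, had a median of 0.01 over 5 clones. Neither group held a clone called in either direction, and their array medians lay on both sides of 0. Over the same arrays 64 neuronal marker clones had a median of -0.10, with 6 called lower, and 32 glial marker clones, most of them aldolase C, had a median of -0.17, with 5 called lower, against 1.61% of all tested clones. Outside plates 02 and 04 the medians were -0.07 over 54 neuronal and -0.04 over 18 glial clones, with 0 called. The words for vessel wall and meninges matched 7 clones, of which 1 was a collagen chain and 2 were a neuronal transgelin, so that no value is given for those tissues. The part of RNA from muscle, vessels or meninges in the muscle contractile values was not tested.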

How the data were processed

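Per the file headers, the deposited spot intensity and background columns are in linear scanner units without subtraction, with 1 intensity per spot and channel that is not named as a mean or a median. The authors' deposited values per spot, taken as log2, have no stated log base, scaling or centring. Set against ratios from the scanner values they had correlations of -0.996 to -1.00 across spots and slopes of -0.73 to -0.81, that is, control over fadrozole, and were used with the opposite sign. Their column medians, as deposited, were -0.0085, -0.0043, -0.0387, -0.0233 and 0.0363. Replicates 1 to 5 are slides 4, 14, 22, 33 and 44. Scanning took 1 day and quantification 2 days.

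In limma 3.58.1 (R 4.3.3, statmod 1.5.0), background was corrected by normexp with an offset of 50 and each array by loess with a span of 0.3. Control, empty and ignored spots had no weight (0 to 29 ignored spots per array, 1 of them of a muscle contractile clone). Duplicate spots were averaged. The filter kept clones that lay 2 SDs of the local background above it on at least 3 arrays, in either channel and for a share of at least 0.5 of the usable spots. The mean log2 ratio was tested against 0, two-sided, with Benjamini-Hochberg adjustment over all tested clones. There were 4 residual and 5.24 prior degrees of freedom. Replicates are exposed groups described as independent, and p-values leave out the spread of the control pool.

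The clones and word lists were chosen with earlier results of these data known. Named were every called clone and, per role, the highest mean above 0, the lowest below 0 and the lowest p (23 clones), and others as stated. Source plates were read from clone names. The pipeline was tested on simulated data. Alternatives changed background correction, normalization, filter, plates, quantification day, prior and replicates, left out the 13 clones of nonmuscle or unconventional myosins, a myosin phosphatase subunit and myosin-binding proteins, or used the authors' values. Those on the blank level, on averaged descriptions, and on clones measured in both channels combined with another change were chosen after seeing the data. Genome positions and sequences were not used here.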

Additional observations from a re-analysis of the deposited data

Results flagged for a closer look

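Of 65 sets of 5 array values examined, 4 held an array whose gap to its nearest neighbor was large against the whole range (Dixon's test at the 95% level, which chance alone passes in about 1 of 20 sets). The skeletal alpha-actin clone 29n15 stood at 0.76 on replicate 1 and between 0.18 and 0.29 on the others. Ryanodine receptor 2 (55h19) stood at -1.04 on replicate 4. The calcium ATPase 1 clone 18p08 stood at 0.49 on replicate 4. The median of the neuronal marker clones stood at -0.16 on replicate 1.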

How the results depend on the processing

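The number of muscle contractile clones called was 0 in 15 of 19 alternatives. It was 2 of the 123 with median centering (the carp parvalbumin clones 27b07 and 14i09) and 2 of the 123 with print-tip loess. With both channels above local background it was 8 of 49, and with both above the blank level 10 of 29. Over all tested clones the count was 0 with no or plain background subtraction, with the authors' values, with plates centered and without plates 02 and 04. It was 131 of 8078 with median centering, 172 of 8078 with print-tip loess and 106 with scale normalization. Under the 2 stricter filters it was 347 of 3308 and 390 of 1885, and it was 0 to 174 with each array left out. Clones with 1 sign on all arrays were 10 of the 123 with median centering, where 12.2% of all tested clones had 1 sign. They were 24 to 35 of the 123 with an array left out, where the share of all tested clones also rose, from 14.8% to between 20.5% and 22.7%. With clones averaged, 3 of the 37 descriptions had 1 sign, light chain 3 and alpha-actin below 0 and carp parvalbumin above it. The share over all tested clones averaged in that way was not taken.

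For the 49 clones measured in both channels, calls are given beside the share of all clones called in the same test. They were 0 without plates 02 and 04 (0.905% of all) and 0 with plates centered (0.212%). Plain subtraction gave 1 (7.59%), no subtraction 7 (10.6%) and the day of quantification as a block 10 (15.4%). Median centering gave 2 (8.62%), print-tip loess 5 (8.62%) and the authors' values 2 (7.68%). With plain subtraction, median centering and the authors' values the share among the 49 was below that of all clones. Calls were 0 to 4 with an array left out (4.35% to 10.6%). The median of all 123 was -0.020 with plates centered. Role medians moved as follows. With plain subtraction, other myosin was at -0.10 and sarcoplasmic at -0.029. With both channels above local background, heavy chain was at 0.18, light chain at -0.19, parvalbumin at 0.19, sarcoplasmic at -0.066 and the ungrouped clones at 0.16. Heavy chain was then only the nonmuscle clone 52a15 and the carp clone 22i16, and the ungrouped value was 51g18 alone. With both above the blank level, heavy chain was at 0.29, light chain at -0.20, parvalbumin at 0.26 and troponin at 0.37. Here heavy chain was 52a15 alone and troponin was 27m12 alone, so that neither value describes a group. With plates centered parvalbumin was at 0.0046. With an array left out, sarcoplasmic ran from -0.034 to 0.068. Clone 18p08 was at -0.10 with no background subtraction, -0.070 with plain subtraction and -0.0036 in the authors' values. The stricter filters and the left-out plates change which clones enter the test, and the cause of the other moves was not tested. Of 409 values of named clones under alternatives, 393 kept their sign and side of the threshold. Alternatives that change the filter, the plates or the prior alone leave the mean as it was, so that the sign could not change in them. Signal over background limits the fadrozole channel. No paired analysis was possible because exposed groups alone have replicates and the control is 1 pool.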
